A study of Mus musculus with 6 samples.

Results

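Fibronectin, the thrombospondins and other matricellular proteins were followed as 10 genes in primary mouse melanocytes labelled BAP1 KO or WT: Fn1, Thbs1, Thbs2, Thbs3, Tnc, Tnxb, Postn, Sparc, Spp1 and Fbln2. The genes were chosen by symbol, as secreted adhesion and matricellular genes, with earlier results of these data known: Fn1 and Thbs1 were taken because they were among the most abundant genes that differed between the labels. The choice therefore used this contrast, and the levels and differences of the 10 genes are given as descriptions, with a p-value only where a call depends on the setting. All 10 were found among the 36528 gene models of the files. The series holds polyA RNA of melanocytes, the pigment cells, from mouse skin, with the BAP1 KO label on 3 libraries and the WT label on another 3. BAP1 removes ubiquitin from histone H2A in the nucleus. The labels give the genotype only as BAP1 wild type or knockout, and say nothing of strain, sex, age, how the knockout was made or how many cultures or animals were used. P-values therefore measure the spread between these libraries, which may be technical.

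Fibronectin is a large glycoprotein that cells assemble into fibrils through integrins, and those fibrils hold collagens, growth factors and other matrix proteins. Matricellular proteins, among them thrombospondins, tenascins, periostin, SPARC and osteopontin, are secreted into the matrix but act more as signals to cells than as scaffold, by binding integrins, syndecans, CD44 and CD47. In skin they are known from wound repair, where keratinocytes and fibroblasts make several of them, and melanocytes and melanoma cells are known to make fibronectin and SPARC.

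Promoter sequence of 3 of the lower genes, and of 1 member that was not lower, is shown first. RefSeq promoter windows of GRCm38.p6 matched 8 of the 10 genes; Fn1 and Thbs1 were not matched. The 250 bases upstream of the annotated start are printed 5′ to 3′ on the strand of the gene for 3 genes far lower under the BAP1 KO label (Tnc, Postn, Spp1) and for Thbs2, which was not lower. Capitals mark every match to 5 motifs searched on both strands.
Tnc (chr4:64047016-64047265, minus strand): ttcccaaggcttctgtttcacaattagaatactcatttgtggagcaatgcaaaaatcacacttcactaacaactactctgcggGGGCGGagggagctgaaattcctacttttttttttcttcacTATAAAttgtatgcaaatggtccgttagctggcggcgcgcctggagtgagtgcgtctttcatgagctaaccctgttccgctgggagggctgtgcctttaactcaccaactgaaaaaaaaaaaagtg
Postn, the second of its 2 windows (chr3:54360857-54361106, plus strand): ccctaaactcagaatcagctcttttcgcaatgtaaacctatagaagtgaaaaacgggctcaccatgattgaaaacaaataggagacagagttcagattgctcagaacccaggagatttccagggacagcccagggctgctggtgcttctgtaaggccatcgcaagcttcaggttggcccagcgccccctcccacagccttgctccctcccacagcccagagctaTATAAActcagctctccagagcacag
Spp1, the first of its 2 windows (chr5:104434861-104435110, plus strand): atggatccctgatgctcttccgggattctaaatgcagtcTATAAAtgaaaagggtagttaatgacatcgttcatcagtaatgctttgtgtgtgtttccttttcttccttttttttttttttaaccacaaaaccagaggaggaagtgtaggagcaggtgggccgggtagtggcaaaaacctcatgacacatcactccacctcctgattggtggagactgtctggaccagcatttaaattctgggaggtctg
Thbs2 (chr17:14694263-14694512, minus strand): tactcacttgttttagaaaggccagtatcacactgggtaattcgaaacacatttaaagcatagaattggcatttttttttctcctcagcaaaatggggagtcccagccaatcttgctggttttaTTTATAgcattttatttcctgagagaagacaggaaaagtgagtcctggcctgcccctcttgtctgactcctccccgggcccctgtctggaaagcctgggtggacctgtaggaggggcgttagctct
The AP-1 motif was spelled TGACTCA, whose reverse complement is also an AP-1 site. The TEAD motif was spelled GGAATG. The M-box bound by MITF was searched as TCATGTG, and its E-box variant was searched as TCACGTG and counted with it. The GC box was spelled GGGCGG, and the TATA motif was spelled TATAAA. Of 32536 windows of this length in the table, 4.45% held AP-1, 12.6% TEAD, 6.32% the M-box, 33% the GC box and 12.3% TATA. TATA was matched in 1 window each of Postn, Thbs2 and Spp1 and in both windows of Tnc, which overlap. It lay 26 to 21 bases upstream of the start in Postn, 126 to 121 bases upstream in both Tnc and Thbs2 (on the opposite strand in Thbs2), and 211 to 206 bases upstream in Spp1, counted in the windows shown. The windows of Postn and Spp1 not shown held none of the 5 motifs. The start of the Spp1 window not shown matches the start of a GENCODE transcript, whereas those of the Spp1, Postn and Thbs2 windows shown do not, so no share is read from the windows printed. Tnc also held a GC box 167 to 162 bases upstream. The windows of Fbln2 and Thbs3 each held a GC box, 16 to 11 and 21 to 16 bases upstream, and the window of Sparc held none of the 5 motifs. Fbln2, also far lower but not printed, held no TATA match, so TATA was not shared by all the far lower genes. AP-1 was matched in the window of Tnxb alone, 55 to 49 bases upstream, and neither TEAD nor the M-box in any of the 11 windows of the 8 genes. The matches did not overlap each other. A match is a run of letters and was not tested as a binding site.

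Under the BAP1 KO label, 6 of the 10 genes were more than 2-fold lower, and 5 of these, Thbs1, Tnc, Postn, Spp1 and Fbln2, were more than 8-fold lower. Fn1 was 7.20-fold lower. Sparc was lower by less than 2-fold, Thbs2 and Thbs3 were slightly higher, and Tnxb was higher on few reads. Counted with edgeR's quasi-likelihood test at an adjusted p under 0.05, 7 members were lower (42.1% of all 17121 tested genes were) and 3 higher (39.4% of all genes were). The groups did not overlap for any of the 10, as for 82.7% of all genes, and a difference of more than 8-fold downward was called for 8.88% of all genes. Nothing is read from these counts, since the contrast was used in choosing the genes. Here a gene is called higher or lower by its level under the BAP1 KO label, with the WT label as the reference. The words rose and fell are used in the same sense, and a change within cells was not tested. BAP1 KO and WT are used below as names of the labels. Levels are CPM, read counts scaled to library size with TMM factors, given in the order of replicates 1, 2 and 3.

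**Figure D1:**
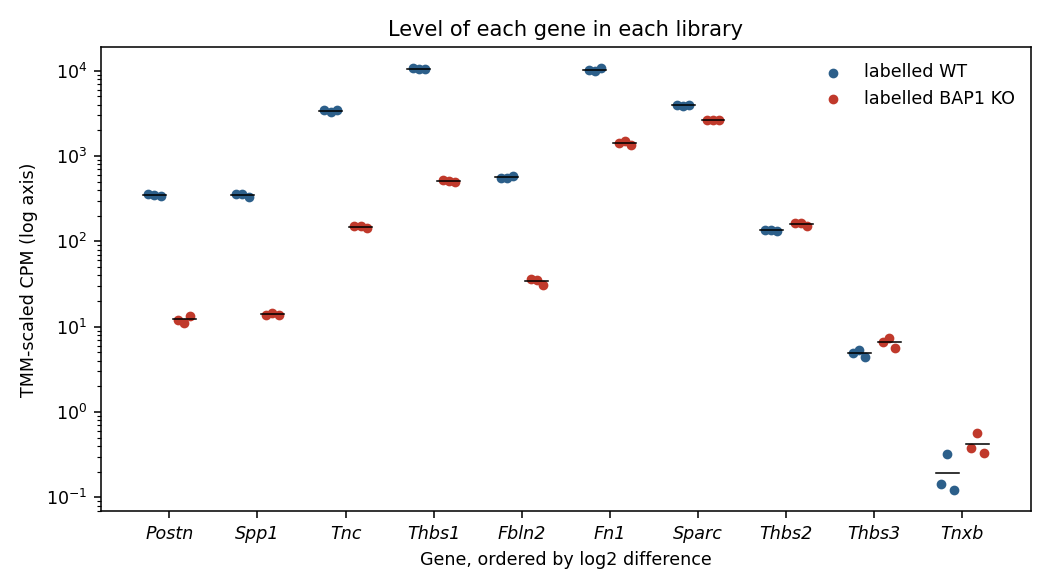
Level of each of the 10 genes in each library, as TMM-scaled CPM on a log axis, with the mean of 3 libraries as a short line; genes are ordered by log2 difference. The 6 genes on the left stand 7.20-fold to 29.1-fold apart between the labels and Sparc 1.49-fold. Under the BAP1 KO label Thbs2 and Thbs3 lie 1.18-fold and 1.35-fold higher, and Tnxb 2.21-fold higher on 50 against 22 reads.

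Fn1 encodes fibronectin (gene ID 14268), which lies on chromosome 1 of GRCm38 from 71585473 to 71653280 with 45 merged exons. Its 3 BAP1 KO libraries read 1439, 1495 and 1362 CPM, and its 3 WT libraries 10326, 9971 and 10647 CPM. Every library labelled WT lay far above every library labelled BAP1 KO, and the libraries of a group differed from each other by little, with a coefficient of variation of 4.64% and 3.28%. The log2 difference was -2.85 (SE 0.043, n = 3 each). The counts pool all transcripts of the gene, so the forms with and without the extra type III domains cannot be told apart.

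The 3 thrombospondins went different ways. Thbs1, a trimeric thrombospondin that binds CD47 and CD36 and can release TGF-beta from its latent form (chromosome 2, 118111876 to 118127133), stood at 519.8, 512 and 492 CPM in BAP1 KO and at 10634, 10576 and 10596 CPM in WT. The coefficient of variation was 2.86% in BAP1 KO and 0.283% in WT, each imprecise from 3 values. The log2 difference was -4.38 (SE 0.035), a 20.9-fold lower level. Thbs2, its closest paralogue, also a trimer (chromosome 17, 14665500 to 14694262), stood at 164, 162 and 151 CPM in BAP1 KO and at 137, 136 and 132 CPM in WT. It was thus the one abundant member with all 3 BAP1 KO libraries above the WT libraries, by 1.18-fold (log2 0.24, SE 0.044). Thbs3, a pentameric thrombospondin (chromosome 3, 89215180 to 89226841), was read at 6.60, 7.43 and 5.60 CPM in BAP1 KO and at 4.95, 5.29 and 4.41 CPM in WT, a 1.35-fold higher level (log2 0.43, SE 0.12). The groups came close to touching, and 6.59% of the exon bases of Thbs3 overlap Mtx1 on the opposite strand. Since the library kit does not mark strand, reads of that stretch cannot be assigned, and Mtx1 itself stood at 34.4 to 35.8 CPM in BAP1 KO and 33.2 to 38.4 CPM in WT. The ratio of Thbs1 to Thbs2 within a library, per length as RPKM, was 3.20 to 3.31 under the BAP1 KO label and 78.8 to 81.7 under the WT label.

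The 2 tenascins differed in level and in direction. Tnc, tenascin C, a hexameric glycoprotein made in wounds and tumour stroma (chromosome 4, 63959785 to 64047015), stood at 149.7, 151 and 145 CPM in BAP1 KO and at 3423, 3312 and 3455 CPM in WT. The groups stood far apart, at a log2 difference of -4.51 (SE 0.037), or 22.8-fold. Tnxb, tenascin X, which connects collagen fibrils (chromosome 17, 34660453 to 34719815), was near the limit of detection, with 14, 24 and 12 reads under the BAP1 KO label and 5, 12 and 5 reads under the WT label. It passed the filter on low counts only through the group in which it was higher, and 6.41% of its 50-base sequences also occur elsewhere, most of them in Tnxa. Its log2 difference of 1.14 (SE 0.40) was past the threshold with edgeR but not with DESeq2 (adjusted p = 0.0612), without BAP1 KO replicate 2 (edgeR adjusted p = 0.105) or without WT replicate 1 (edgeR adjusted p = 0.0566). Over all alternatives tried its adjusted p ran from 0.0027 to 0.452.

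Postn, Spp1 and Fbln2 were moderately abundant under the WT label and low under the BAP1 KO label. Postn encodes periostin, an integrin ligand that promotes collagen crosslinking (chromosome 3, 54359267 to 54391041); it was read at levels of 12.0, 11.1 and 13.3 CPM with the BAP1 KO label and at 364, 354 and 342 CPM in WT. This was the largest fold among the 10 genes, 29.1-fold lower (log2 -4.86, SE 0.064). Spp1 encodes osteopontin, a secreted phosphoprotein that binds integrins and CD44 (chromosome 5, 104435111 to 104441053), and stood at 13.8, 14.6 and 13.7 CPM against 355, 356 and 333 CPM, 24.8-fold lower (log2 -4.63, SE 0.051). Of the exon bases of Spp1, 18.8% overlap the gene model Gm42793 on the same strand, and 11.6% of its 50-base sequences are shared with it. Part of the Spp1 count may therefore be uncertain. These shares of sequence are not shares of reads, and the annotation used for counting was not given. Fbln2 encodes fibulin-2, a binding partner of fibronectin and of basement membrane proteins (chromosome 6, 91212460 to 91272540), and stood at 35.8, 35.6 and 31.1 CPM against 557, 548 and 581 CPM, 16.4-fold lower (log2 -4.04, SE 0.059). For all 3 genes the lowest library labelled WT was far above the highest library labelled BAP1 KO.

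Sparc kept most of its level. SPARC, or osteonectin, binds collagen and is a known product of melanocytes and melanoma cells (chromosome 11, 55394159 to 55420080). It stood at 2644, 2640 and 2631 CPM in BAP1 KO and at 3960, 3840 and 4000 CPM in WT. The coefficient of variation was 0.27% in BAP1 KO and 2.12% in WT, each again imprecise from 3 values. All BAP1 KO libraries lay below the WT libraries, by 1.49-fold (log2 -0.58, SE 0.029). When edgeR's glmTreat was asked for more than a 2-fold difference, it called 20% of all genes lower and 10.6% higher. The 6 genes more than 2-fold lower were called, and Sparc, Thbs2, Thbs3 and Tnxb were not.

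The order of the genes differed between the labels. Compared per length, in the deposited size-factor-adjusted RPKM, Thbs1 came first under the WT label at 1678 ± 28.2 (SD, n = 3), the sixth highest of all gene models in each of those libraries. Fn1 at 1131 ± 53.7 and Sparc at 1120 ± 40.5 RPKM followed, and their libraries overlapped. Tnc stood at 426 ± 15.7, Spp1 at 194 ± 5.25, Fbln2 at 112 ± 4.91, Postn at 98.7 ± 2.99, Thbs2 at 21.0 ± 0.345, Thbs3 at 1.07 ± 0.0821 and Tnxb at 0.0123 ± 0.00662 RPKM. Under the BAP1 KO label Sparc came first at 767 ± 4.24 RPKM, at rank 23 of all gene models in each library. Fn1 followed at 160 ± 7.52 RPKM, at ranks 195 to 219, and Thbs1 at 82.1 ± 2.55 RPKM, at ranks 581 to 624. Thbs2, at 25.3 ± 1.202 RPKM, stood above Tnc at 19.0 ± 0.413, and then came Spp1 at 7.98 ± 0.301, Fbln2 at 6.92 ± 0.552, Postn at 3.47 ± 0.312, Thbs3 at 1.46 ± 0.205 and Tnxb at 0.0274 ± 0.0078 RPKM. Apart from Fn1 and Sparc under the WT label, no neighbours in either order overlapped between libraries.

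**Figure D2:**
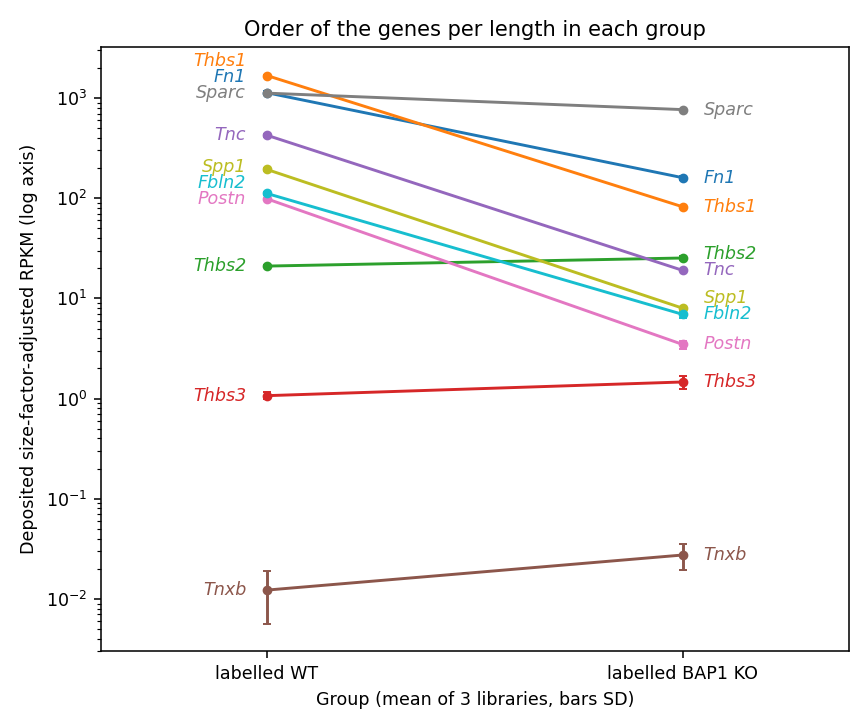
Mean deposited size-factor-adjusted RPKM of each gene in the 3 libraries labelled WT (left) and the 3 labelled BAP1 KO (right), on a log axis with SD bars; labels are shifted where they would collide. The line of Sparc falls from 1120 to 767 and crosses those of Thbs1 and Fn1, and the line of Thbs2 crosses those of Tnc, Spp1, Fbln2 and Postn.

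Some ratios between the genes differed little between the labels while others differed many-fold. Thbs1 stood at 4.27 to 4.39 times the RPKM of Tnc under the BAP1 KO label and at 3.88 to 4.04 times under the WT label. Spp1 stood at 2.04 to 2.62 times the RPKM of Postn under the BAP1 KO label and at 1.94 to 2.01 times under the WT label. Fn1 stood at 0.199 to 0.218 times the RPKM of Sparc under the BAP1 KO label and at 0.9999 to 1.02 times under the WT label. Thbs1 and Tnc, and Spp1 and Postn, were thus lower by similar factors, whereas Fn1 and Sparc were not. Thbs1, Tnc, Postn, Spp1 and Fbln2 all lay at log2 differences from -4.86 to -4.04, so similar factors are not particular to those pairs.

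Together the 10 genes took 2.94% to 3.10% of all reads counted in gene models in the libraries labelled WT and 0.477% to 0.490% in those labelled BAP1 KO. Fn1 and Thbs1 alone took 2.08% to 2.19% under the WT label and 0.183% to 0.196% under the BAP1 KO label. Within the reads of the 10 genes, Sparc made up 52.5% to 54.3% under the BAP1 KO label and 13.2% to 13.3% under the WT label. Thbs1 made up 10.1% to 10.4% under the BAP1 KO label and 35.2% to 36.3% under the WT label, and Thbs2 3.11% to 3.29% and 0.437% to 0.468%.

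**Figure D3:**
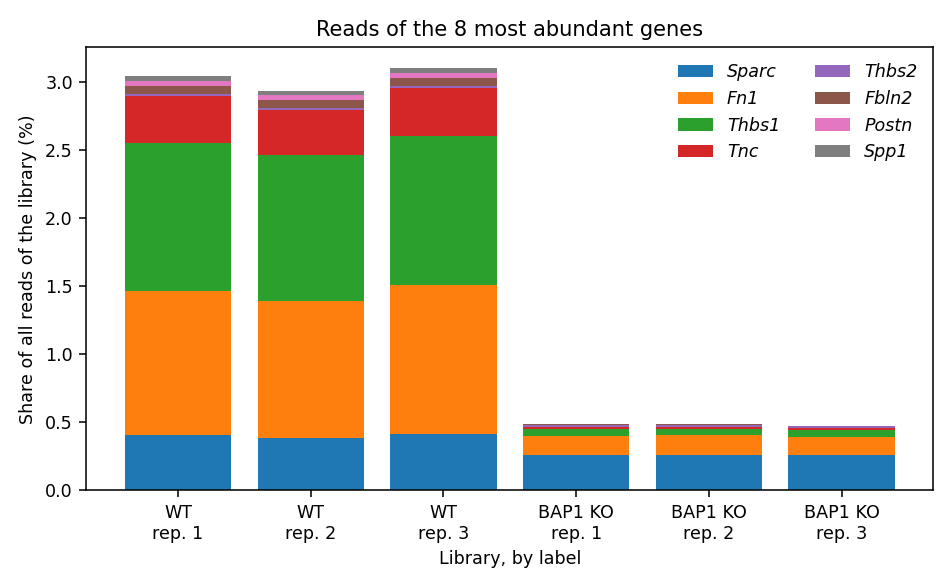
Share of all reads counted in gene models of each library (percent, axis from 0) taken by the 8 most abundant of the 10 genes, stacked. Bars of the libraries labelled WT reach about 3.10% at most, built mainly of Fn1 and Thbs1, and those labelled BAP1 KO reach at most 0.490%, with Sparc as the largest part.

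The genes whose pattern over the 6 libraries lay nearest to Fn1 and to Thbs1 were sought among 4691 genes with a mean of at least 50 CPM and an assigned symbol, by the Euclidean distance between centred log2 CPM profiles. Nearest to Fn1 were Sema4f (distance 0.062), Ptk7 (0.064), Mex3a (0.078) and Adgrg1 (0.084), at log2 differences of -2.89, -2.84, -2.84 and -2.86. Nearest to Thbs1 were Nectin4 (0.045), Krt14 (0.10), Wnt7b (0.10) and Pkp1 (0.11), at -4.44, -4.37, -4.41 and -4.41. With 2 groups of 3 libraries these distances mostly compare the size of a single difference.

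The labels were checked by the targeted gene and by cell type markers. Libraries held 33987690 to 43773769 reads uniquely aligned to gene models. Bap1 stood at 72.4 to 77.3 CPM in BAP1 KO and at 55.6 to 55.8 CPM in WT, so its counts, which pool all exons, did not mark the knockout, and every direction here rests on the labels alone. The 8 melanocyte markers were read in all 6 libraries, and all 8 were higher under the BAP1 KO label (39.4% of all genes were). Their summed levels were 61080 to 61882 CPM in BAP1 KO and 6336 to 6437 CPM in WT. In WT these sums lay below those of the keratinocyte markers, 9781 to 9857 CPM. Keratinocyte, fibroblast and mural markers were mostly lower, as 7 of the 10 genes were. Melanocyte, macrophage and Schwann cell markers were higher in their sums. The marker lists, like the 10 genes, were chosen with earlier results of these data known. All 14 keratinocyte markers were lower under the BAP1 KO label, with sums of 698 to 714 CPM against 9781 to 9857 CPM, and Krt14 and Krt5 at 2000 and 1230 CPM in WT. Of 12 fibroblast markers 10 were lower and 1 higher, with sums of 28.6 to 30.05 CPM against 115 to 123 CPM. The higher one, Pdgfrb, at a mean of 20.1 CPM in BAP1 KO and 9.30 CPM in WT, made up most of the BAP1 KO sum. Of the lower ones, 3 (Col6a3, Lum and Fap) passed the filter on low counts through the WT label alone, which favours such a call. Of 6 mural and smooth muscle markers 5 were lower and 1 higher (106 to 113 CPM against 371 to 401 CPM), and Des and Rgs5 among the lower ones passed through the WT label alone, as did Aif1 and Pecam1 of the next lists. Of 8 macrophage markers 5 were higher and 3 lower (231 to 239 CPM against 55.9 to 63.1 CPM), and of 6 Schwann cell markers 4 were higher and 1 lower (1781 to 1869 CPM against 543 to 641 CPM). The 6 endothelial markers, of which 2 could be tested, summed to 12.0 to 13.1 CPM against 9.29 to 10.01 CPM, nearly all of it Kdr, and Cldn5 was at 0 under the BAP1 KO label; no other marker of these lists was at 0 in all libraries of a label. In bulk RNA, fewer cells of a type and less RNA per cell cannot be told apart, and the part of other cell types in the differences of the 10 genes was not tested.

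Other matricellular and related matrix genes went both ways. Of 32 such genes 21 could be tested, of which 12 were lower, 6 higher and 3 not past the threshold, with a median log2 difference of -0.55, beside -0.03 over all genes tested; 81.5% of all genes were called. One of the 21, Spock3, passed the filter through the WT label alone. The list was chosen with earlier results of these data known, so nothing is read from these counts or the median. Among the CCN proteins, small matricellular regulators, Ccn2 (connective tissue growth factor) stood at 54.2, 55.2 and 55.7 CPM in BAP1 KO and at 2477, 2507 and 2507 CPM in WT. It was 45.4-fold lower (edgeR adjusted p = 3.44e-14, log2 -5.50, SE 0.037), a larger difference than that of any of the 10 genes. Most genes named from this and the following lists were picked by the size of their difference, so their p-values are given as descriptions only. Ccn1 fell from 683 ± 23.2 to 99.999 ± 3.04 CPM (edgeR adjusted p = 8.24e-13), whereas Ccn3 rose from 0.931 ± 0.137 to 3.65 ± 0.226 CPM (edgeR adjusted p = 2.21e-07). Spock3, a relative of SPARC, fell 18.6-fold from 4.89 CPM, and Npnt, nephronectin, a ligand of integrin alpha 8, fell 3.75-fold from 92.6 CPM. The fibulins differed in direction: beside the lower Fbln2, Fbln5, which takes part in elastic fibre assembly, rose 2.37-fold to 122.6 ± 1.93 CPM (edgeR adjusted p = 3.37e-10). Smoc2 and Emilin2 rose 6.39-fold and 4.59-fold to 3.12 and 4.97 CPM. The osteopontin relatives Ibsp, Dmp1 and Mepe, the thrombospondins Thbs4 and Comp and the tenascins Tnr and Tnn, named here after their values were seen, averaged under 1 CPM under either label and were not tested.

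Receptors of these proteins were mostly lower. Of 22 receptor genes tested 17 were lower, 4 higher and 1 not past the threshold, where 42.1% of all genes were lower and 39.4% higher. Their median log2 difference was -1.39, beside -0.03 over all genes. This list too was chosen with earlier results known, so nothing is read from its counts or median. Itgb1, the shared beta 1 integrin chain, stood at 1518, 1496 and 1564 CPM in BAP1 KO and at 2206, 2322 and 1917 CPM in WT (log2 -0.49, SE 0.060, edgeR adjusted p = 1.94e-05). Its partner Itga3, a laminin receptor chain that also binds thrombospondin 1, fell from 2198 ± 84.1 to 121 ± 4.41 CPM (18.2-fold, edgeR adjusted p = 1.43e-13). The heparan sulphate proteoglycan Sdc1 fell 27.6-fold from 1953 CPM, the epithelial integrin chain Itgb6, which pairs with alpha V to bind fibronectin and tenascin C, fell 20.8-fold from 243 CPM, and Ptprz1, a tenascin-binding phosphatase, fell 7.17-fold from 15.7 CPM. In the other direction Itga9, a receptor chain for tenascin C and osteopontin, rose from 11.9 ± 0.482 to 88.3 ± 1.22 CPM (7.43-fold, edgeR adjusted p = 1.76e-12). Itga8 and Itgb3 rose 1.56-fold and 1.29-fold to 4.15 and 23.4 CPM. The fourth higher gene, Cd36, stood at 0.336 and 0.184 CPM and passed the filter through the BAP1 KO label alone. Its call was lost by DESeq2 (adjusted p = 0.166), with no count filter (edgeR adjusted p = 0.0505) and with glmTreat. It was also lost without BAP1 KO replicate 1 or 2 or WT replicate 1 or 2 (edgeR adjusted p from 0.0555 to 0.0641), with 0.0219 to 1 as the range over its alternatives. The keratinocyte marker sums given above moved in the direction of Itga3, Itgb6 and Sdc1, and their part was not tested.

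Genes for proteins that fold, modify, crosslink or cleave matrix proteins were mostly lower. Of 18 such genes 17 could be tested, of which 13 were lower, 3 higher and 1 not past the threshold, beside the same 42.1% and 39.4% of all genes. Their median log2 difference was -1.41. Nothing is read from these counts or the median, since this list was also chosen with earlier results known. Among the secreted proteases, Mmp9 fell 48.5-fold from 208 CPM and Plau (urokinase) 47.4-fold from 1016 CPM, and Plaur, the receptor of urokinase, fell 15.96-fold from 144 CPM. Htra1, a secreted serine protease that can cleave fibronectin, stood at 196, 196 and 194 CPM in BAP1 KO and at 2384, 2375 and 2510 CPM in WT (edgeR adjusted p = 1.25e-13). The 6 members that act inside the secretory pathway, Hspa5, P4hb, Serpinh1, Pofut2, B3glct and Fam20c, each differed by less than 2-fold. The secreted Mmp2 (log2 -0.62) and Loxl2 (log2 0.27) did so too, so this is not particular to those 6. P4hb, Serpinh1 and B3glct (log2 -0.64, -0.25 and 0.09) and Mmp2 are named after their values were seen. Hspa5, the chaperone BiP, stood at 792 ± 14.95 and 840.4 ± 23.1 CPM (log2 -0.08, SE 0.034, edgeR adjusted p = 0.0406). Fam20c, the kinase that phosphorylates osteopontin, and Loxl2, a secreted crosslinking oxidase, were each 1.21-fold higher. Pofut2, which adds fucose to thrombospondin repeats, stood at 133 ± 3.48 and 122 ± 7.25 CPM with overlapping groups (log2 0.13, SE 0.049, edgeR adjusted p = 0.0334). The calls of Hspa5 and Pofut2 depended on the setting: Pofut2 was not called with library totals (edgeR adjusted p = 0.262), with upper-quartile factors (edgeR adjusted p = 0.0571) or with at least 5 CPM in 3 libraries (edgeR adjusted p = 0.363, log2 0.05). Hspa5 was not called with DESeq2 size factors (edgeR adjusted p = 0.108), with no count filter (edgeR adjusted p = 0.286) or by DESeq2 (adjusted p = 0.172). Leaving out BAP1 KO replicate 1 or 2 or WT replicate 1 or 2 ended the call of Pofut2 (edgeR adjusted p from 0.0714 to 0.0859), and leaving out any of the 6 libraries ended that of Hspa5 (edgeR adjusted p from 0.0605 to 0.46). With glmTreat both stood at an adjusted p of 1, the highest of their alternatives, and the lowest were 3.8e-05 for Pofut2 (without WT replicate 3) and 0.00124 for Hspa5 (at least 5 CPM in 3 libraries).

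**Figure D4:**
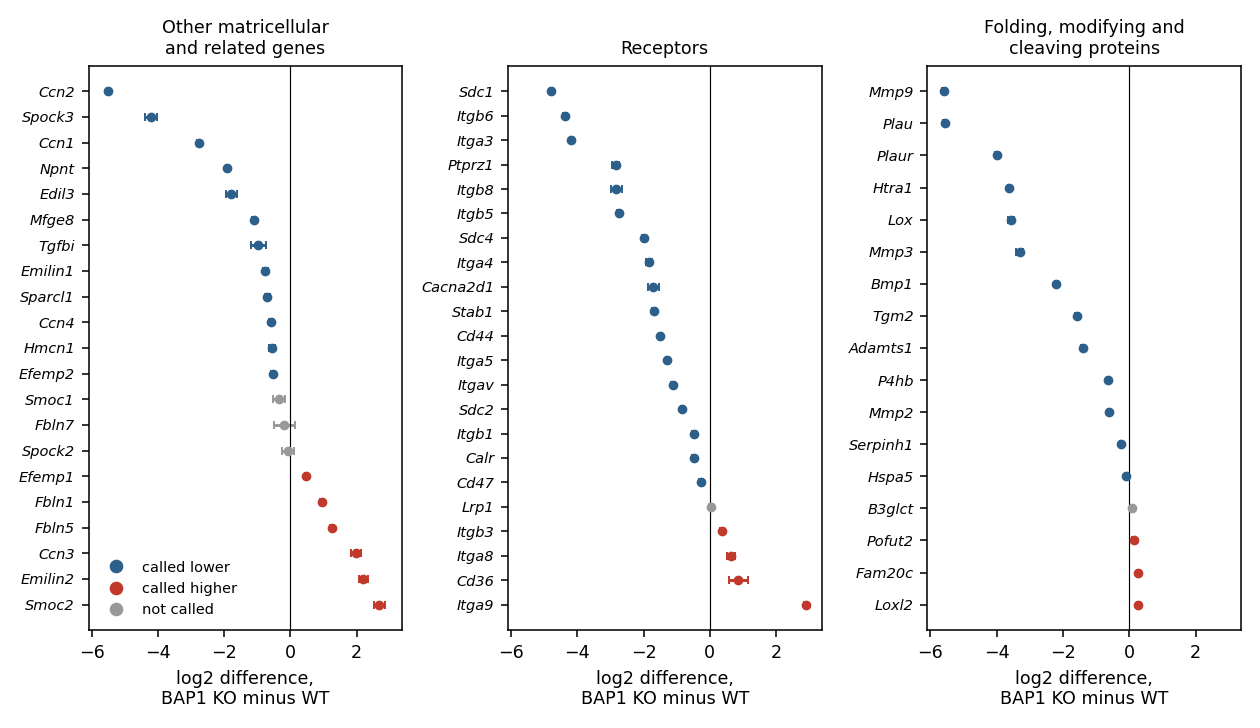
Log2 difference (BAP1 KO minus WT, bars SE) of every tested gene of 3 lists: other matricellular and related genes (21), receptors (22) and folding, modifying and cleaving proteins (17), coloured by edgeR call. Ccn2, Sdc1, Mmp9 and Plau lie at the low end and Smoc2 and Itga9 at the high end.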

How the data were processed

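PolyA RNA was sequenced as single-end reads of 50 bases from a library kit that does not mark strand (TruSeq RNA v2), per the labels' protocols, and GSNAP and GRCm38 are named in the submitters' processing notes. The deposited files give counts, the number of reads uniquely aligning to each gene model per the file headers, and a size-factor-adjusted RPKM made by the authors. The counting tool, annotation and versions were not given in the sources used here. Dividing RPKM by counts left only a gene factor and a library factor. Symbols and positions came from the RefSeq table of GRCm38.p6, which matched 31049 of 36528 gene models (85%), and exon overlap from GENCODE M21 on the same build.

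Counts were filtered with filterByExpr (minimum count 10, minimum total 15; 17121 genes), scaled by TMM (factors 0.975 to 1.03), and tested across all genes with edgeR 4.0.16 (glmQLFit, glmQLFTest, no covariate) in R 4.3.3, with Benjamini-Hochberg adjustment over all genes. The threshold was an adjusted p of 0.05, and a standard error is the log2 difference without sign, divided by the square root of F. The script was tested on simulated data. Within groups all pairs of libraries differed beyond counting error. Chi-square over its degrees of freedom was 2.01 to 4.10 for BAP1 KO pairs and 3.91 to 17.4 for WT pairs. It was highest between WT replicates 2 and 3. Replicates were numbered by submission order. Python 3.11.15 was used for sequences.

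The 10 genes and all lists were chosen with earlier results of these data known. Named from the lists were up to 4 called genes per direction by absolute log2 difference, above a floor of 2 CPM in the higher group, plus the 2 of highest level. Alternatives were DESeq2 size factors, upper-quartile factors, library totals, no filter, a floor of 5 CPM in 3 libraries, limma-voom (limma 3.58.1), DESeq2 1.42.0, glmTreat, and leaving out each library. One gene of the list of modifying enzymes is not reported here and was left out of its counts.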

Additional observations from a re-analysis of the deposited data

How the results depend on the processing

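Of 139 values of the 10 genes under these alternatives, 132 kept their direction and their side of the threshold, 7 kept the direction only and 0 reversed. The log2 difference ran from -2.93 to -2.79 for Fn1, -4.46 to -4.35 for Thbs1, -4.59 to -4.47 for Tnc, -4.94 to -4.79 for Postn, -4.71 to -4.59 for Spp1, -4.12 to -3.96 for Fbln2, -0.65 to -0.53 for Sparc, 0.16 to 0.29 for Thbs2, 0.34 to 0.54 for Thbs3 and 0.88 to 1.70 for Tnxb. With glmTreat against a log2 difference of 1, which asks for a larger change by construction, 1818 genes were higher and 3417 lower of all, 0 of the 10 genes higher (0 of 3 also at an unadjusted p under 0.05; 2 were called by DESeq2 and 3 by limma-voom), 6 of the other matricellular genes lower, 1 receptor higher and 0 of the modifying enzymes higher (0 also unadjusted; 3 by DESeq2 and 3 by limma-voom). With at least 5 CPM in 3 libraries, where fewer genes were tested, 3 other matricellular genes and 2 receptors were higher. Leaving out a library gave 6507 to 7117 genes higher and 6915 to 7260 lower, 2 or 3 of the 10 genes higher and 7 lower. No paired analysis was possible because the labels carry no replicate numbers or pairing. For Tnxb, 50 reads under the BAP1 KO label and 22 under the WT label limit the precision.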
